A study of Bos taurus with 9 samples.

Results

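RNA polymerase II (RNA pol II) peaks that overlapped no peak of a histone mark were examined in rumen tissue of Holstein cattle, the lining of the first stomach chamber, by chromatin immunoprecipitation and sequencing (ChIP-seq). The samples were untreated tissue (control) and tissue taken after 24 h of butyrate, with 1 library for each antibody and condition. The paper sets rumen tissue before butyrate against tissue after it. Where control was sampled first, sampling time and treatment cannot be told apart. The butyrate was infused into the rumen and the tissue taken as biopsies, the RNA pol II antibody was a mouse monoclonal, and the labels state neither the number of animals nor any pooling. The peaks were selected on measured overlap: from the control and the butyrate RNA pol II list, those on chromosomes 1 to 29 that shared no base with a peak of acetylated lysine 9 or 27 of histone H3 (H3K9ac, H3K27ac) or of trimethylated lysine 9 (H3K9me3), in either condition. This left 983 mark-free peaks out of 1915 RNA pol II peaks on these chromosomes and out of 86291 peaks in all 8 lists. Of these, 321 came from the control list and 662 from the butyrate list.

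RNA pol II transcribes protein-coding genes and many non-coding RNAs, and it gathers at active promoters, along transcribed genes and at active enhancers. H3K9ac and H3K27ac are found on the nucleosomes of active promoters and enhancers, so that RNA pol II and acetylation usually lie close together. H3K9me3 marks heterochromatin, including silenced repeats and clusters of zinc finger genes. Butyrate, a product of rumen fermentation, is an energy source of the rumen epithelium and blocks deacetylases, which take acetyl groups off histones. An RNA pol II peak outside all called peaks of these marks can therefore be asked how far it lies from acetylated or H3K9me3 peaks.

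Both RNA pol II libraries were run on lane 3. Of the histone marks, both acetylations had lane 1 in control against lane 3 in butyrate tissue, and H3K9me3 had lane 3 against lane 4, so that for these marks an effect of lane and one of treatment cannot be told apart. The lists hold positions and no read numbers, so the depth behind a peak is unknown. With 1 library per group no difference between conditions or peak classes was tested. The 95% intervals given below cover counting error only and treat peaks as independent, which peaks of 1 library are not.

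Mark-free peaks made up 47.7% (Wilson 95% interval 43.9 to 51.5) of the 673 control RNA pol II peaks and 53.3% (50.5 to 56.1) of the 1242 butyrate peaks on chromosomes 1 to 29. These shares are set by the rule and are given as a description. The 6 histone lists covered only 19.0 Mb of these chromosomes, and 99.2% of positions lay under no histone peak. Mark-free thus means without a called peak, and a mark too weak to be called cannot be seen in the lists. The paper names limited sensitivity in tissue as a possible reason for the low peak numbers there. Of the other peaks, 219 in control and 408 after butyrate overlapped H3K9ac or H3K27ac without H3K9me3 and are called acetylated. Another 71 and 100 overlapped H3K9me3 alone, and 62 and 72 overlapped both kinds of mark. The butyrate list held 2.06 times as many mark-free peaks as the control list (log2 ratio 1.04, 0.85 to 1.24). The same log2 ratio was 0.90 (0.66 to 1.13) for acetylated peaks, 0.49 (0.06 to 0.93) for H3K9me3 peaks and 0.22 (-0.27 to 0.70) for peaks with both, beside 0.88 (0.75 to 1.02) over all RNA pol II peaks of these chromosomes. The interval of the mark-free peaks thus overlapped those of the acetylated peaks and of the H3K9me3 peaks but not that of the peaks with both.

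**Figure D1:**
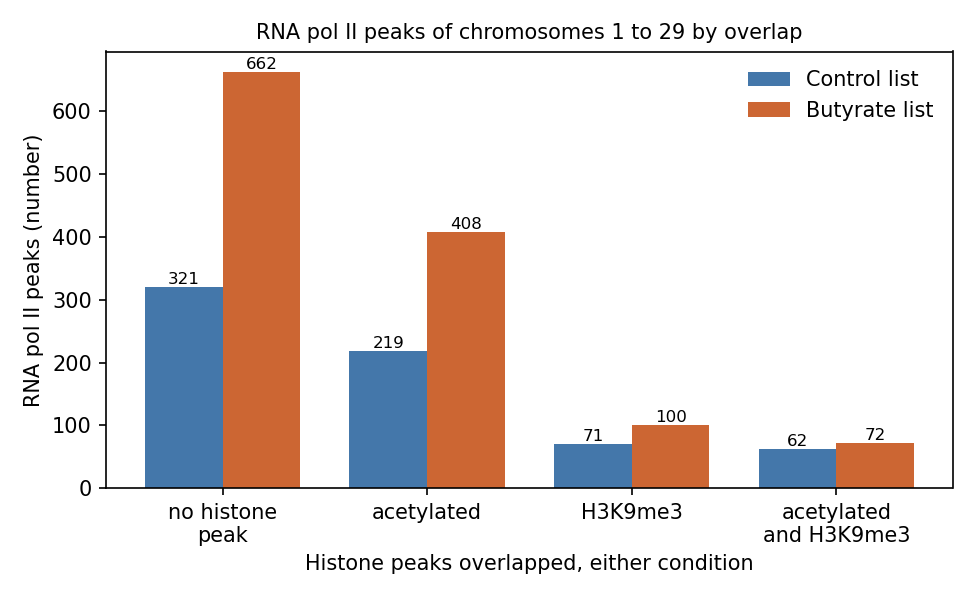
Number of RNA pol II peaks on chromosomes 1 to 29 (y axis) by the histone peaks they overlapped in either condition (x axis), for the control and the butyrate list, 1 library each. The class without a histone peak was the largest in both lists, with 321 and 662 peaks, and the class with both kinds of mark differed least, with 62 and 72.

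At the edge of the rule, 10 control and 12 butyrate mark-free peaks lay within 100 bp of a histone peak, and 38 and 88 within 1 kb. The closest in control lay at chromosome 6, 5777664 to 5777916, 10 bp from a control H3K9me3 peak. It was followed by chromosome 11, 4501448 to 4501661, which was 29 bp from a butyrate H3K9me3 peak, and chromosome 19, 36462686 to 36462927, which was 42 bp from a butyrate H3K27ac peak. After butyrate the closest lay at chromosome 2, 120072603 to 120072813 and 122165214 to 122165423, with 21 and 31 bp to control H3K27ac peaks, and at chromosome 19, 43925072 to 43925276, with 35 bp to a butyrate H3K9ac peak. Just outside the rule were control peaks with 1, 11 and 24 bases under a histone peak, at chromosome 12, 88252187 to 88252386, chromosome 29, 45941617 to 45941864, and chromosome 15, 28210210 to 28210461. The butyrate peaks just outside had 4, 7 and 9 such bases, at chromosome 18, 50316869 to 50317167, chromosome 21, 47295269 to 47295468, and chromosome 24, 12816448 to 12816647. Another 34 control and 70 butyrate RNA pol II peaks overlapped histone peaks of the other condition only and were left out by the rule for that reason. Of these 20 and 40 were acetylated, 14 and 25 had H3K9me3, and 5 of the butyrate peaks had both.

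Mark-free peaks were narrow. Their median width was 208 bp in control (quartiles 200 and 248) and 203.5 bp after butyrate (200 and 238), where 200 bp is the smallest width in any list. At this smallest width were 132 of 321 control peaks, or 41.1% (35.9 to 46.6), and 314 of 662 butyrate peaks, or 47.4% (43.7 to 51.2). Acetylated RNA pol II peaks had median widths of 223 and 218 bp, H3K9me3 peaks 239 and 245.5 bp, and peaks with both marks 316 and 314.5 bp. Only 24 control and 35 butyrate mark-free peaks were wider than 300 bp, which is 7.48% (5.08 to 10.9) and 5.29% (3.83 to 7.26), against 54.8% and 55.6% of the peaks with both marks. A wide peak has more bases that can meet a histone peak, so the rule itself favours narrow peaks to an extent that was not tested. Butyrate against control, the log2 ratio of mark-free peak numbers was 1.25 (0.96 to 1.54) at 200 bp, 0.92 (0.65 to 1.20) above 200 and up to 300 bp and 0.54 (-0.20 to 1.29) above 300 bp. The ratio was highest in the narrowest class, although the intervals of all width classes overlapped.

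Few mark-free peaks recurred under the other condition. Of the 321 control peaks 10, or 3.12% (1.70 to 5.64), overlapped a butyrate RNA pol II peak by at least 1 bp, where 15.3% of all control RNA pol II peaks of chromosomes 1 to 29 did. Of the 662 butyrate peaks 9, or 1.36% (0.717 to 2.56), overlapped a control peak, where 8.29% of all butyrate peaks did. The shares of acetylated peaks were 15.5% (11.3 to 20.9) of control and 7.84% (5.61 to 10.9) of butyrate peaks. For H3K9me3 peaks they were 23.9% (15.5 to 35.0) and 16% (10.1 to 24.4), and for peaks with both marks 67.7% (55.4 to 78.0) and 63.9% (52.4 to 74.0). The intervals of the mark-free peaks lay below those of every other class in both lists. With the rule applied to histone peaks of the same condition only, 17 of 355 control (4.79%) and 17 of 732 butyrate peaks (2.32%) were found, and with a gap of up to 500 bp allowed between RNA pol II peaks 4.36% and 2.11%.

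In each width class the share was below that of acetylated peaks, but the intervals separated only in the middle class. Among peaks wider than 200 bp and up to 300 bp, 7 of 165 control mark-free peaks (4.24%, 2.07 to 8.50) and 3 of 313 butyrate ones (0.958%, 0.326 to 2.78) were found in the other list. In that width class the shares of acetylated peaks were 18.3% (12.5 to 25.9) and 6.60% (3.97 to 10.8), so that the intervals did not overlap. At 200 bp, 1.52% (0.416 to 5.36) of control and 1.27% (0.496 to 3.23) of butyrate mark-free peaks were found, and the intervals of acetylated peaks, from 1.58 to 12.7% and from 2.39 to 9.76%, overlapped with these. Above 300 bp only 1 of 24 control and 2 of 35 butyrate mark-free peaks were found, and their intervals, reaching up to 20.2% and 18.6%, overlapped those of the acetylated peaks.

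**Figure D2:**
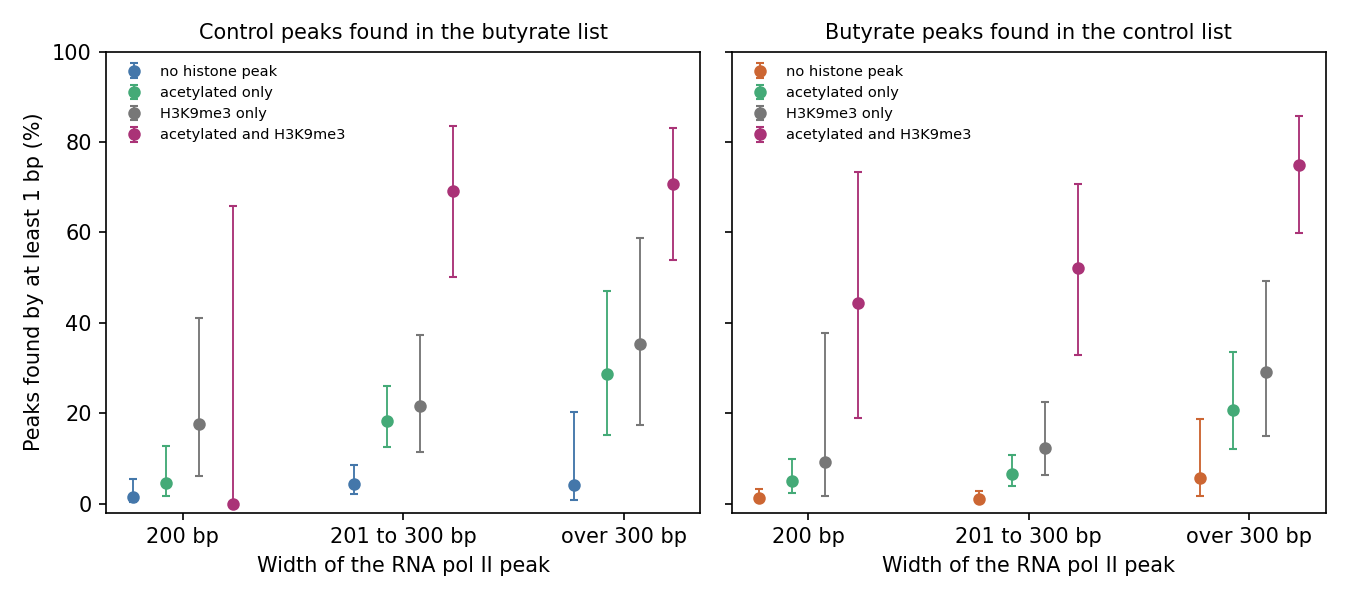
Share of RNA pol II peaks found in the list of the other condition by at least 1 bp (y axis, percent), by width of the peak (x axis) and by class, for control peaks on the left and butyrate peaks on the right. Points are shares and bars Wilson 95% intervals, which cover counting error only. Peaks without a histone peak stay between 0.958% and 5.71% at all widths, while peaks with both marks reach 70.6% and 75% above 300 bp.

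Of the 10 control mark-free peaks that were found, 9 met a butyrate peak that was itself mark-free. The remaining peak was the one at chromosome 11 named above, which shared 5 bp with a butyrate RNA pol II peak carrying both marks. The 5 widest kept peaks of control, of which all but 1 were also among the 5 widest of butyrate, were described one by one. At chromosome 25, 17730750 to 17731078, a control peak of 329 bp met a butyrate peak of 314 bp. It was the kept peak farthest from any histone mark, 306 kb from the nearest acetylated peak and 621 kb from the nearest H3K9me3 peak of either condition, with 5 control and 6 butyrate H3K27ac peaks within 500 kb on either side. At chromosome 29, 41690524 to 41690789, widths were 266 and 200 bp. This region was crowded with acetylation, with 79 control and 72 butyrate H3K27ac peaks within 500 kb and the nearest acetylated peak 2.48 kb away.

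The next kept peaks lay in surroundings poorer in H3K27ac than that of chromosome 29. At chromosome 22, 18087403 to 18087650, the widths were 248 bp in control and 257 bp after butyrate, with an acetylated peak at 12.1 kb and 3 control but 0 butyrate H3K27ac peaks within 500 kb. A fold is not given for so few peaks. At chromosome 5, 18737796 to 18738046 (251 bp, 237 bp after butyrate), the nearest acetylated peak was 230 kb away, whereas a control H3K9me3 peak lay at 1.93 kb. At chromosome 17, 14228677 to 14228918 (242 and 247 bp), the nearest acetylated peak was 355 kb away and a control H3K9me3 peak 24.2 kb away. The widest kept peak of the butyrate list, 336 bp at chromosome 8, 10112869 to 10113204, measured 216 bp in control and lay 21.1 kb from a control H3K27ac peak. The control and butyrate peaks shared from 200 to 309 bp at chromosomes 8, 17, 22, 25 and 29, and 51 bp at chromosome 5. These 6 regions lay in surroundings from 0 to 79 H3K27ac peaks per Mb.

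The neighbourhood of the peaks was searched next. Within 10 kb of a butyrate RNA pol II peak were 34 of the 321 control mark-free peaks, or 10.6% (7.68 to 14.4), and within 100 kb 92, or 28.7% (24.0 to 33.8). For comparison, of all positions of chromosomes 1 to 29 that lay under no histone peak, 0.894% were within 10 kb and 8.06% within 100 kb of a butyrate RNA pol II peak. Of the 662 butyrate mark-free peaks 6.95% (5.25 to 9.14) were within 10 kb and 18.7% (15.9 to 21.9) within 100 kb of a control peak, with 0.487% and 4.51% of positions. These positions include gaps and sequence to which reads cannot be aligned uniquely. Among the mark-free peaks that met no peak of the other list, 24 of 311 in control (7.72%, 5.24 to 11.2) and 37 of 653 after butyrate (5.67%, 4.14 to 7.71) had one within 10 kb, and 26.4% (21.8 to 31.5) and 17.6% (14.9 to 20.7) within 100 kb, so that most had none in this range. Acetylated RNA pol II peaks, those meeting a peak of the other list included, had one within 100 kb in 43.8% (37.4 to 50.5) of control cases. After butyrate the share was 24.0% (20.1 to 28.4). Both lay above the 28.7% and 18.7% of all mark-free peaks, but the intervals overlapped after butyrate.

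The distance to acetylated chromatin was then measured, as the gap to the nearest H3K9ac or H3K27ac peak of the same condition. The median was 21.2 kb (95% interval 17.4 to 26.5) for control mark-free peaks, with quartiles of 5.29 and 67.5 kb. After butyrate it was 19.9 kb (16.4 to 23.3), with quartiles of 5.60 and 63.5 kb. The difference between the conditions was smaller than either interval. Over all positions under no histone peak the distance was far larger, with medians of 111 kb in control and 123 kb after butyrate. RNA pol II peaks with H3K9me3 alone had medians of 73.7 kb in both lists, with intervals from 47.0 to 98.2 kb and from 32.8 to 117 kb, above those of the mark-free peaks. A distance of 0 to an acetylated peak of either condition is removed from both of these classes by the way they were defined.

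In shares, 9.35% (6.62 to 13.0) of control and 7.70% (5.91 to 9.99) of butyrate mark-free peaks had an acetylated peak of their own condition within 1 kb, against 2.03% and 1.76% of positions. Within 10 kb the shares were 35.5% (30.5 to 40.9) and 35.0% (31.5 to 38.8), against 13.5% and 12.0% of positions. Within 100 kb they reached 82.6% (78.0 to 86.3) and 82.2% (79.1 to 84.9), against 48.1% and 46.1%. Mark-free peaks were thus nearer to acetylation than positions without a mark in general, and most of them were more than 10 kb from it. By width of the mark-free peak, median distances were 26.0 kb (17.9 to 35.8) for 200 bp and 17.8 kb (11.3 to 21.6) for widths above 200 and up to 300 bp in control, and 19.6 kb (15.5 to 24.3) and 18.8 kb (14.4 to 24.5) after butyrate. Peaks wider than 300 bp lay at 40.4 kb (8.04 to 84.7) and 37.0 kb (13.0 to 64.1). The median was thus largest in the widest class, which held only 24 control and 35 butyrate peaks, and the intervals of the classes overlapped in both lists.

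**Figure D3:**
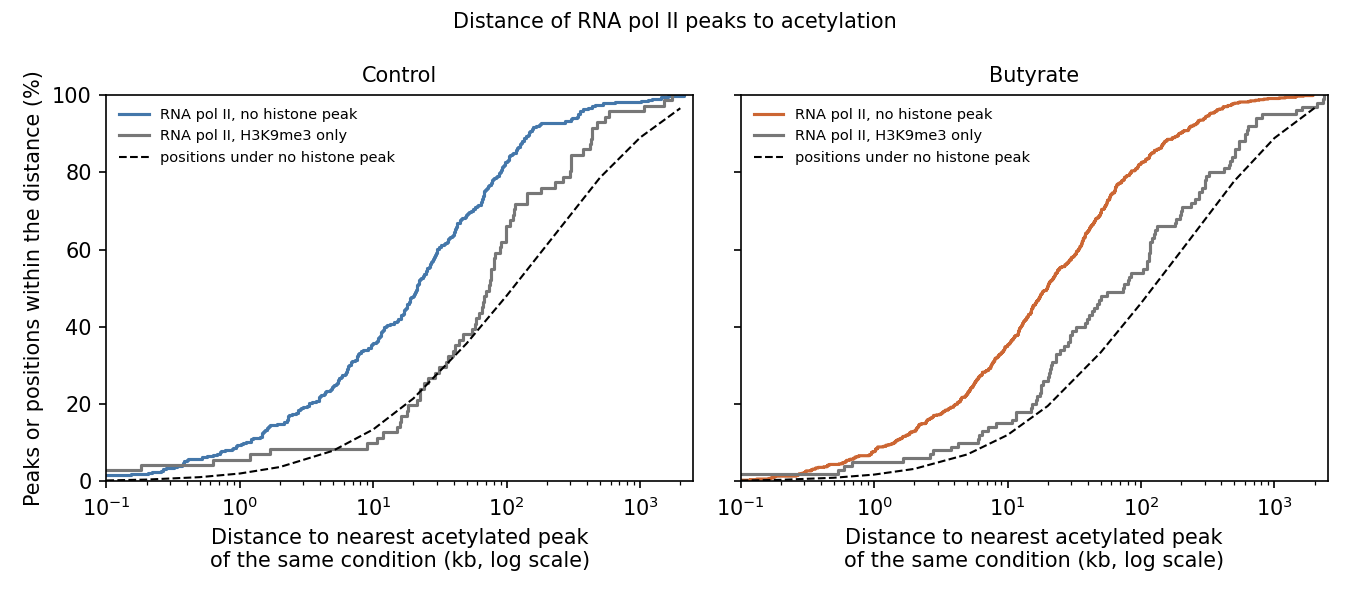
Cumulative share (y axis, percent) of RNA pol II peaks within a given distance (x axis, kb, log scale) of the nearest H3K9ac or H3K27ac peak of the same condition, for control on the left and butyrate on the right. Solid coloured lines are peaks without a histone peak, grey lines peaks with H3K9me3 alone and dashed lines all positions under no histone peak. At 100 kb the coloured lines reach 82.6% and 82.2% and the dashed lines 48.1% and 46.1%.

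The nearest histone peak was most often H3K27ac, the mark with by far the longest lists. For 157 of the 321 control mark-free peaks it was a control H3K27ac peak and for 113 a butyrate H3K27ac peak, whereas H3K9me3 was nearest for 28 in each condition and H3K9ac for 8 and 4. Of the 662 butyrate peaks 292 were nearest to a control H3K27ac peak and 268 to a butyrate one, 53 and 45 to H3K9me3 peaks, and 9 and 15 to H3K9ac peaks. Because peaks of several lists can be equally close, these numbers can add up to more than the number of peaks. No histone peak of either condition was found within 100 kb of 33 control peaks (10.3%) and 64 butyrate peaks (9.67%).

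Acetylation of neither condition lay within 10 kb of 62.0% of control and 58.0% of butyrate mark-free peaks. Around 85 control mark-free peaks it was present in both conditions, while 29 had it in control only and 8 after butyrate only. Around the butyrate mark-free peaks the numbers were 194 for both conditions, 46 for control only and 38 for butyrate only. Of the peaks with acetylation nearby in 1 condition only, control made up 78.4% (62.8 to 88.6) around control peaks and 54.8% (44.1 to 65.0) around butyrate peaks, against 64.1% over all positions under no histone peak. Acetylation in both conditions made up 69.7% and 69.8% of the peaks with any nearby, close to the 66.5% of positions. The intervals of the control share overlapped slightly, and both included its value over positions. For acetylation the conditions were on different lanes, and the part of the lane in these numbers was not tested.

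The farthest peaks from any acetylated peak of either condition were then named. In control they were chromosome 17, 21123954 to 21124153, at 2125 kb, chromosome 1, 61704178 to 61704499, at 1434 kb, and chromosome 18, 31757462 to 31757661, at 1355 kb. After butyrate they were chromosome 15, 10557829 to 10558088, at 1714 kb, chromosome 1, 61730227 to 61730432, at 1460 kb, and chromosome 27, 9120815 to 9121072, at 1428 kb. The peaks of chromosome 1 lay 25.7 kb apart, and both had H3K9me3 close by in both conditions. The control peak was 5.16 kb from a control and 5.32 kb from a butyrate H3K9me3 peak, and the butyrate peak 97 bp and 168 bp. The other 4 had their nearest H3K9me3 peak of either condition between 1263 and 4267 kb away.

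H3K9me3 was in general much farther from mark-free peaks than acetylation was, but its lists were far shorter. They held 1536 control and 1710 butyrate peaks on chromosomes 1 to 29, against 36963 and 32763 for H3K27ac alone. The median distance to the nearest H3K9me3 peak of the same condition was 504 kb (405 to 651) in control and 719 kb (633 to 816) after butyrate, against 938 and 948 kb over positions under no histone peak. Within 10 kb were 21 of 321 control peaks, or 6.54% (4.32 to 9.79), and 39 of 662 butyrate peaks, or 5.89% (4.34 to 7.95), against 1.03% and 1.09% of positions. Within 100 kb the shares were 19.9% (15.9 to 24.7) and 17.8% (15.1 to 20.9), against 8.43% and 8.40%. Acetylated RNA pol II peaks were within 100 kb of H3K9me3 in 11.9% (8.23 to 16.8) and 11.3% (8.56 to 14.7) of cases. Their median distances of 565 kb (460 to 691) and 639 kb (523 to 759) had intervals that overlapped those of the mark-free peaks.

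Local acetylation density was counted as the number of H3K27ac peaks of the same condition centred within 500 kb on either side, that is per Mb. Around mark-free peaks the median was 18 in both lists, with intervals from 15 to 22 in control and from 16 to 21 after butyrate, and with quartiles of 9 and 39 and of 8 and 35. Windows placed every 100 kb over chromosomes 1 to 29 had a median of 7 in both conditions, with quartiles of 1 and 20 in control and 1 and 18 after butyrate. Acetylated RNA pol II peaks had medians of 36 (33 to 45) and 37 (34 to 40), and H3K9me3 peaks 8 (5 to 10) and 6 (4 to 9). Mark-free peaks thus stood between acetylated and H3K9me3 peaks, with intervals that overlapped neither, whereas peaks with both marks, at 15 (9 to 21) and 14 (7 to 23), could not be set apart from them. An acetylated peak counts the histone peak it overlaps, which adds to its density. The classes were also cut by overlap with these same lists, and an RNA pol II peak meets H3K27ac more easily where it is dense. The order of the classes is therefore in part set by the rule, to an extent that was not tested.

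No H3K27ac peak was present within 500 kb of 8 control mark-free peaks (2.49%, 1.27 to 4.84) and of 16 butyrate ones (2.42%, 1.49 to 3.89), whereas 21.3% and 22.2% of windows had none. The densest class of windows, cut at the upper quartile of all windows, held 46.4% (41.0 to 51.9) of control and 49.8% (46.1 to 53.6) of butyrate mark-free peaks, against 24.7% and 24.6% of the windows. It held 78.1% (72.1 to 83.1) and 77.7% (73.4 to 81.5) of the acetylated RNA pol II peaks and 19.7% (12.1 to 30.4) and 18% (11.7 to 26.7) of the H3K9me3 ones. The rule itself favours this order of the classes. For H3K9ac, the scarcer mark, the median was 2 peaks per Mb around mark-free peaks in both lists and 1 in windows. For H3K9me3 it was 0 in both lists and in windows, with 50.2% (44.7 to 55.6) of control and 58.2% (54.4 to 61.9) of butyrate mark-free peaks having none within 500 kb, against 67.2% and 67.9% of windows.

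**Figure D4:**
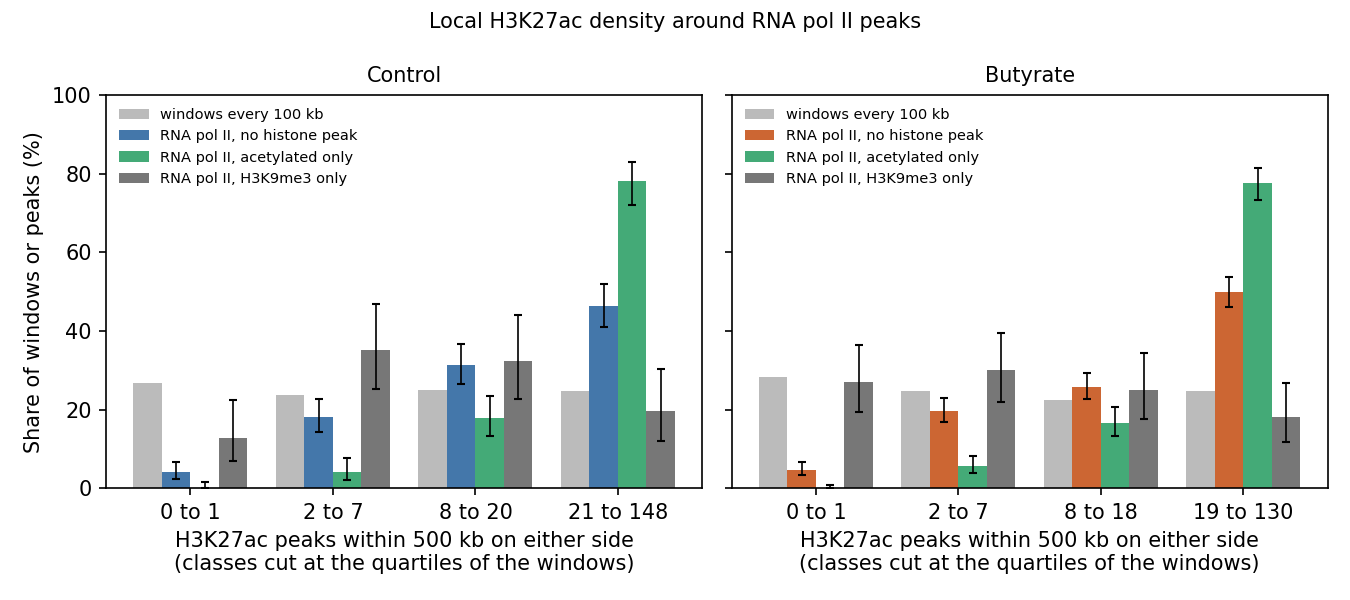
Share (y axis, percent) of windows and of RNA pol II peaks by the number of H3K27ac peaks of the same condition within 500 kb on either side (x axis, classes cut at the quartiles of the windows), for control on the left and butyrate on the right. Error bars are Wilson 95% intervals for counting error. Peaks without a histone peak shift towards dense windows, with 46.4% and 49.8% in the densest class, but less than acetylated RNA pol II peaks with 78.1% and 77.7%. The classes were cut by overlap with the same lists, which favours this order.

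The same places were compared between the H3K27ac lists of the conditions. Around control mark-free peaks the mean number per Mb was 27.2 in the control and 24.0 in the butyrate H3K27ac list, a log2 ratio of -0.18. Around butyrate mark-free peaks it was 27.1 and 24.3, a log2 ratio of -0.16. Windows over the chromosomes had 14.7 and 13.0, a log2 ratio of -0.17, so the H3K27ac neighbourhood of mark-free peaks differed between conditions by about as much as the chromosomes did in general. Fewer H3K27ac peaks in the butyrate than in the control list were counted around 63.6% of control and 62.5% of butyrate mark-free peaks, and more around 81 and 179 of them. Of windows, many of them without any H3K27ac peak, 47.6% had fewer and 21.2% more, and of acetylated RNA pol II peaks 72.6% and 71.6% had fewer.

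Mark-free peaks were spread over all 29 chromosomes in both lists. In control the density ranged from 0.0279 peaks per Mb on chromosome 21 (2 peaks) to 0.250 per Mb on chromosome 19 (16 peaks), with a median of 0.114. After butyrate it ranged from 0.114 per Mb on chromosome 27 (5 peaks) to 0.440 on chromosome 14 (37 peaks), with a median of 0.259. The butyrate list had more mark-free peaks on 28 chromosomes and as many as control on chromosome 27. The counting interval of the log2 ratio lay above 0 on 15 chromosomes. By number, chromosome 10 differed most, from 8 to 43 peaks (log2 ratio 2.43, 1.36 to 3.49), followed by chromosome 11, from 15 to 43 (1.52, 0.68 to 2.36). Chromosome 19, the densest in control, went from 16 to 18 (0.17, -0.78 to 1.12), and chromosome 5 from 30 to 37 (0.30, -0.39 to 0.99). All RNA pol II peaks together were more numerous in the butyrate list on each of the 29 chromosomes. They went from 23 to 67 on chromosome 10, from 26 to 72 on chromosome 11 and from 9 to 11 on chromosome 27. On chromosomes 19 and 5 they went from 38 to 40 and from 51 to 75.

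**Figure D5:**
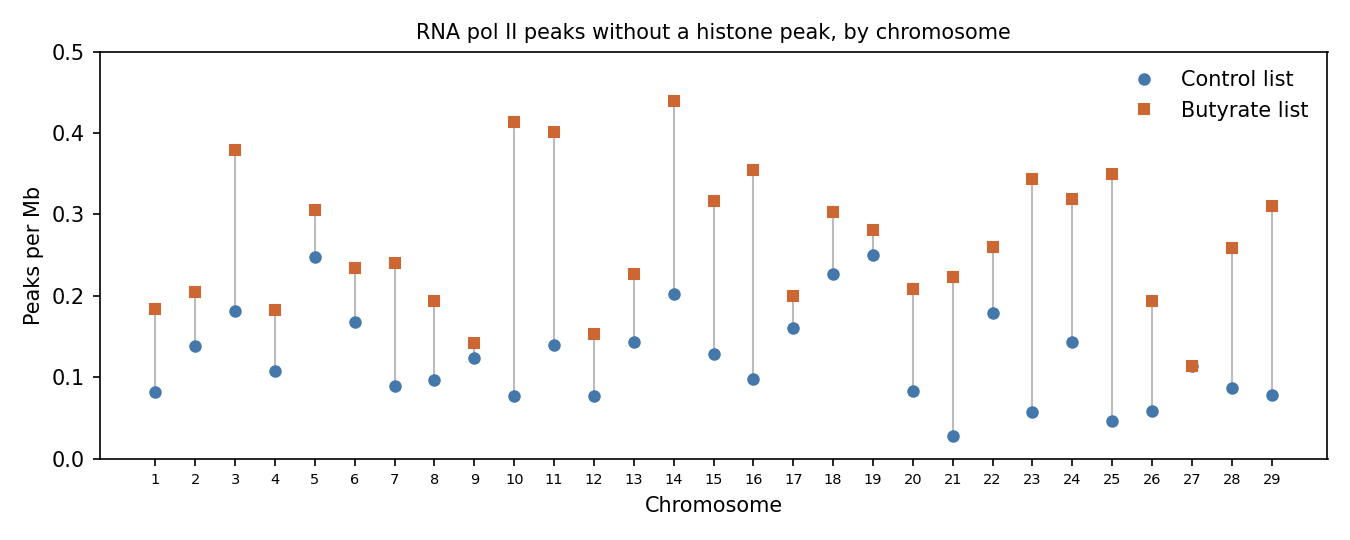
Number of RNA pol II peaks without a histone peak per Mb (y axis) on each of chromosomes 1 to 29 (x axis), for the control and the butyrate list, joined by a grey line per chromosome. Values run from 0.0279 to 0.250 in control and from 0.114 to 0.440 after butyrate, and on chromosome 27 both points fall on 0.114.

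The order of the chromosomes was not the same in both lists. Across the 29 chromosomes the density of control mark-free peaks and of butyrate mark-free peaks had a Pearson coefficient of 0.22 and a Spearman coefficient of 0.20, which is weak for counts as low as 2. With the number of H3K27ac peaks per Mb of the same condition the Pearson and Spearman coefficients were 0.26 and 0.09 for control mark-free peaks and 0.51 and 0.64 for butyrate ones. For acetylated RNA pol II peaks, a class cut by overlap with these lists, they were 0.75 and 0.64 in control and 0.77 and 0.86 after butyrate. These are descriptions over chromosomes, which share 1 library each and differ in length and gene content. As a share of the RNA pol II peaks of a chromosome, mark-free peaks went from 15.4% on chromosome 21 (2 of 13) to 84.6% on chromosome 22 (11 of 13) in control, and from 41.9% on chromosome 23 (18 of 43) to 75% on chromosome 20 (15 of 20) after butyrate.

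Most mark-free peaks stood alone. Of the 2523 windows of 1 Mb, 277 held any control mark-free peak and 248 of these held 1, and 525 held any butyrate mark-free peak and 422 of these held 1. Within 10 kb of another mark-free peak of the same list were 12 control peaks (3.74%, 2.15 to 6.42) and 29 butyrate peaks (4.38%, 3.07 to 6.22). Among RNA pol II peaks that overlapped a histone peak, 11.9% (8.95 to 15.7) and 14.1% (11.5 to 17.2) had another such peak this close, with intervals above those of the mark-free peaks. The first and last 5 Mb of the chromosomes, 11.6% of their span, held 29 control (9.03%, 6.36 to 12.7) and 77 butyrate mark-free peaks (11.6%, 9.41 to 14.3), so that no excess at chromosome ends was detectable over this length. In the first and last 10 Mb, 23.1% of the span, were 91 control (28.3%, 23.7 to 33.5) and 162 butyrate mark-free peaks (24.5%, 21.3 to 27.9), and the control interval lay just above that share of the span. Of RNA pol II peaks that overlapped a histone peak, 35.2% (30.4 to 40.4) in control and 26.0% (22.6 to 29.8) after butyrate lay there. The higher control share was thus not particular to mark-free peaks.

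The exception was the window at chromosome 6, 6000001 to 7000000, with 12 control mark-free peaks, where no other control window held more than 3. It was rich in H3K9me3, with 41 control and 25 butyrate H3K9me3 peaks, and held 6 control and 3 butyrate H3K27ac peaks, where the median of windows was 7 in both conditions. The control list had 29 RNA pol II peaks there and the butyrate list 16, of which 3 were mark-free, and 0 of the 12 control mark-free peaks met a butyrate RNA pol II peak. The widest mark-free peak of control, 435 bp at 6464451 to 6464885, lay in this window, 22.0 kb from a control H3K27ac peak and 30.1 kb from a butyrate H3K9me3 peak. Without this window the share of control mark-free peaks within 10 kb of another was 1.94% (0.893 to 4.17). The next 5 control windows tied at 3 mark-free peaks each, on chromosomes 3, 5, 16 and 17. The first of them by position, at chromosome 3, 16000001 to 17000000 and 17000001 to 18000000, held 94 and 43 control H3K27ac peaks.

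After butyrate the windows with most mark-free peaks were chromosome 15, 29000001 to 30000000, with 6, and chromosome 14, 14000001 to 15000000 and 15000001 to 16000000, with 5 each. The control list had 0, 1 and 0 mark-free peaks in them. They held 11, 23 and 17 butyrate H3K9me3 peaks, and 38, 31 and 5 butyrate H3K27ac peaks. The other widest mark-free peaks of control were 420 bp at chromosome 10, 47745303 to 47745722, and 369 bp at chromosome 22, 30147892 to 30148260, both nearest to H3K27ac peaks, at 49.6 and 31.2 kb. The widest after butyrate was 499 bp at chromosome 5, 18741144 to 18741642, which was 941 bp from a control H3K9me3 peak and 3.098 kb from the control RNA pol II peak of the kept region described above. It was followed by 408 bp at chromosome 1, 73752571 to 73752978, 14.3 kb from a control H3K9me3 peak, and 385 bp at chromosome 2, 19476444 to 19476828, 1.74 kb from a control H3K27ac peak. Whether any of these regions lie in genes was not analysed here.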

How the data were processed

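Peak lists of 8 ChIP-seq libraries were used, and no list of the input DNA was analysed here. Per the labels and the methods of the study, reads of 75 nt were filtered for quality, aligned with BWA to the bovine assembly UMD3.1 and kept where they aligned uniquely with fewer than 2 mismatches, and the authors called peaks with MACS2 at default settings against the input, 1 list per library. Trim Galore 0.4.1 is named in the submitters' processing notes. The deposited lists hold the chromosome, start and end of each peak, with no score, count or depth. Positions were read as 1-based with both ends included.

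Overlap meant at least 1 shared base. A distance was the difference between the facing ends. Background positions were all bases of chromosomes 1 to 29, up to the last peak of any list, under none of the 6 histone lists. The 95% intervals are Wilson intervals for shares and order-statistic intervals for medians. For log2 ratios of peak numbers, the Wilson interval of the butyrate share of both counts together was converted to a log2 ratio. The functions were checked on simulated peaks. Python 3.11.15, numpy 2.4.6, pandas 2.3.3 and scipy 1.17.1 were used. The alternatives covered the overlap rule, the histone lists used, peak width, merging of neighbours and window sizes.

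Named regions were, per list, the 3 widest mark-free peaks, the 3 farthest from acetylation, the 3 nearest to a histone peak, the 3 RNA pol II peaks with the smallest overlap, the 5 widest kept peaks and the 3 densest windows of 1 Mb. The peaks and these rules were chosen with earlier results of these data known. No gene positions or sequence of this assembly were used here.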

Additional observations from a re-analysis of the deposited data

Results flagged for a closer look

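Chromosome X lies outside the comparisons above and also carried mark-free RNA pol II peaks. In control 54 of 181 RNA pol II peaks on X overlapped no histone peak of either condition (29.8%, 23.6 to 36.9), and after butyrate 81 of 247 (32.8%, 27.2 to 38.9). These shares lay below the 47.7% and 53.3% on chromosomes 1 to 29. They depend on how many histone peaks a chromosome holds. Of the H3K9me3 peaks, 1536 of 2242 in control and 1710 of 2430 after butyrate lay on chromosomes 1 to 29. For H3K27ac it was 36963 of 37568 and 32763 of 33241. How many of the remaining peaks lay on X was not examined, and their part in the lower share was not tested. On X 6 of the 54 control (11.1%, 5.19 to 22.2) and 6 of the 81 butyrate mark-free peaks (7.41%, 3.44 to 15.2) were found in the RNA pol II list of the other condition, above the 3.12% (1.70 to 5.64) and 1.36% (0.717 to 2.56) on chromosomes 1 to 29. The intervals overlapped in control and did not after butyrate. The differences between X and the other chromosomes were not tested.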

How the results depend on the processing

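Results were recomputed under 14 other settings, 1 choice at a time, which gave 145 values for 19 results. Of these 128 kept within the counting interval of the value given above and 17 moved beyond it. Shares, distances and densities have no direction, so only the log2 ratio of peak numbers could have reversed, and it did not. The log2 ratio of mark-free peak numbers stayed within its interval throughout. The mark-free share was 42.1% in control and 46.2% after butyrate when a histone peak within 1 kb counted as a mark, 52.7% and 58.9% with marks of the same condition only, 41.4% and 45.5% among peaks wider than the minimum width, and 56.5% for butyrate without the acetylation lists of lane 1. Measured to histone peaks of both conditions, the median distance to H3K9me3 was 291900 bp in control and 320502 bp after butyrate, and that of butyrate peaks to acetylation 14417.5 bp. The latter was 23786 bp when a histone peak within 1 kb counted as a mark. The first or last 10 Mb of the chromosomes held 28.3% and 24.5% of mark-free peaks. Another mark-free peak lay within 100 kb of 12.5% and 12.2%, and within 10 kb of 2.87% of butyrate peaks wider than the minimum width. Without the densest 1 Mb window of control, a setting chosen after seeing the data, the share within 10 kb in control was 1.94%. No paired analysis was possible because the labels give 1 library per antibody and condition. Depth and peak height are not in the lists, which limits what can be said of a single peak.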

Other observations

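Of the 9 positions where both lists had a mark-free peak, those at chromosomes 5, 17 and 24 were nearest to H3K9me3, at 1.93, 24.2 and 14.0 kb from the control peak, with the nearest acetylated peak of either condition at 230, 355 and 353 kb. They were singled out after their values had been seen. The kept peaks at chromosomes 13 and 19, not described above, lay 16.4 and 1.503 kb from an acetylated peak, with 40 and 49 control H3K27ac peaks per Mb.

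Mark-free peaks were also set against the other RNA pol II peaks of their own list. Within 100 kb of an acetylated RNA pol II peak of the same list were 12 control mark-free peaks (3.74%, 2.15 to 6.42) and 45 butyrate ones (6.80%, 5.12 to 8.97), against 1.55% and 2.79% of positions under no histone peak. Within 100 kb of an RNA pol II peak with H3K9me3 alone were 14 (4.36%, 2.62 to 7.19) and 34 (5.14%, 3.70 to 7.09), against 0.472% and 0.639% of positions. Within 100 kb of an RNA pol II peak with both marks were 14 control (4.36%) and 22 butyrate mark-free peaks (3.32%). For each class and list the interval lay above the share of positions. Mark-free peaks were thus more often within 100 kb of a marked RNA pol II peak than positions under no histone peak. Most mark-free peaks had none in this range, but this also held for most positions.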
